A study of Mus musculus with 8 samples.

Results

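The integrated stress response and its transcriptional output were followed here through 41 genes, chosen by symbol: ATF4 target genes and regulators, serine and one-carbon enzymes, amino acid transporters, and 14 of the cytosolic aminoacyl-tRNA synthetases. All 41 symbols were found among the 39179 genes of the count tables, and all 41 passed the filter on low counts. They fall into 4 classes, with 10 transcription factors and regulators, 11 enzymes, 6 transporters and 14 synthetases. The class named factors and regulators also holds the enzyme gene Chac1 and the receptor gene Vldlr. RNA sequencing had been done on 8 libraries of mouse pancreatic ductal adenocarcinoma (PDAC) cells. The groups were 4 libraries of cells overexpressing WT-USP21 and 4 of cells overexpressing ED-USP21, 1 of each from cell lines 1, 2, 3 and 4. USP21 is a deubiquitinating enzyme, and the labels do not spell out ED. Both groups share the same background alleles in every line, among them ROSA_rtTA, a doxycycline-dependent transactivator, and p48-Cre, a recombinase driven in the embryonic pancreas. Lines 1 and 2 are labelled FVB/C57Bl6 and lines 3 and 4 C57BL/6. Both groups carry a construct, so neither is a baseline of cells without one.

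In the integrated stress response, 4 kinases that sense different stresses (Eif2ak1, Eif2ak2, Eif2ak3 and Eif2ak4) phosphorylate the translation factor eIF2. Bulk protein synthesis then falls while translation of ATF4 rises, so ATF4 output can change without a change in Atf4 RNA. ATF4, paired with other bZIP proteins, activates genes that import amino acids, synthesise them and charge them onto tRNA. Pancreatic tumour cells are known to lean on this program when amino acids or translation are limiting.

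Gene counts per library ran from 72828184 to 107551210, and reads in no gene from 11.4% to 20.6% of all counts. Usp21 stood at 147, 944, 539 and 941 CPM (a gene's counts relative to its library's TMM-scaled total) in the WT-USP21 libraries of lines 1 to 4, against 1658, 3133, 1662 and 2721 CPM in the ED-USP21 libraries. In each of the 4 lines the WT-USP21 library thus held less Usp21 RNA, with a log2 difference of -3.50 in line 1 and of -1.73 to -1.53 in the other lines, and every difference below goes with this one, whose part was not tested. Epithelial markers of duct cells summed to 6247 to 11297 CPM in WT-USP21 libraries and 6727 to 9775 CPM in ED-USP21 libraries, with Epcam low at means of 1.51 and 0.939 CPM. Acinar markers summed to at most 10.7 CPM with WT-USP21 and 12.3 CPM with ED-USP21, with Amy2a1 and Ptf1a at 0. Fibroblast markers summed to at most 15.0 CPM with WT-USP21 and 7.84 CPM with ED-USP21, with Dcn and Lum at 0. Immune markers summed to 6.08 to 13.0 CPM with WT-USP21 and 5.02 to 15.9 CPM with ED-USP21, nearly all Cd68. Endothelial markers, 2 of 6 of which passed the filter on low counts, summed to 2.36 to 7.54 CPM with WT-USP21 and 0.559 to 0.903 CPM with ED-USP21, mostly Kdr, and their part in the results was not tested.

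Many genes of this response are known to share a promoter element, so its sequence is shown in members that carry it. The C/EBP-ATF response element, TGATGNAAN, is the composite site at which ATF4 binds beside a C/EBP protein. RefSeq promoter windows of 300 bases (250 before and 50 after the annotated start, build GRCm38.p6) were matched for 32 of the 41 members. Searched on both strands, 13 of these 32 genes held the element, or 40.6%, against 4.5% of all 27025 genes in the table. The members were chosen as genes of this response, so a higher share follows from the choice and is not a result of these libraries. No other motif was searched for. By class it was found in 4 of 10 factors and regulators, 3 of 10 enzymes, 1 of 4 transporters and 5 of 8 synthetases. A match is a description of these letters and not a measured binding site. The 6 members with the element that had the smallest p in the comparison within lines are shown 5′ to 3′ on the gene's strand, with the element in capitals. Asns is at chr6:7693185-7693282 (minus strand), Atf3 at chr1:191183386-191183494 (minus), Yars at chr4:129189856-129189927 (plus), Chac1 at chr2:119350998-119351106 (plus), Pck2 at chr14:55540112-55540220 (plus) and Vldlr at chr19:27216770-27216877 (plus). The element reads forward in Asns and Yars and on the opposite strand in the others.
Asns: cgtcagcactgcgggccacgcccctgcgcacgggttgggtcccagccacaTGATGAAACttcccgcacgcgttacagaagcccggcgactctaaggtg
Atf3: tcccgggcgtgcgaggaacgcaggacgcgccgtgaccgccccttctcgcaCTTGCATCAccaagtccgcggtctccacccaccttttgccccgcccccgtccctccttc
Yars: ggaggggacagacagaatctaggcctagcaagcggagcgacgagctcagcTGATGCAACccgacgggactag
Chac1: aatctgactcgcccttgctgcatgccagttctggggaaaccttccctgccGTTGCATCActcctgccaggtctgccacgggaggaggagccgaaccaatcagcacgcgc
Pck2: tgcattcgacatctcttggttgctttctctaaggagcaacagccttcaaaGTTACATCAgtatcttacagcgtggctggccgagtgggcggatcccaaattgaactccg
Vldlr: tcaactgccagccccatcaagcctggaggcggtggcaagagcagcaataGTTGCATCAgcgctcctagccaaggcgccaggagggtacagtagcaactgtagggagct

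Over all 4 lines, no member passed edgeR's test of WT-USP21 against ED-USP21, and 1, Psat1, passed that of DESeq2. In lines 2, 3 and 4 most members lay lower with WT-USP21, while in line 1 most lay higher. Across lines 1, 2, 3 and 4 the median difference of the 41 members (log2 CPM, WT-USP21 minus ED-USP21) was 0.13, -0.07, -0.11 and -0.17, against 0.01, 0.00, -0.02 and 0.00 over the 16192 genes tested. In bulk RNA a smaller share of expressing cells and less RNA per cell cannot be told apart. A member was higher with WT-USP21 in 31 of 41 cases in line 1, and lower in 29 of 41 in line 2, 38 of 41 in line 3 and 34 of 41 in line 4. Lower in each of lines 2, 3 and 4 were 25 of 41 members, or 61%, against 20.3% of all genes. Of these 25, 18 were higher with WT-USP21 in line 1, or 43.9% of members against 12.5% of all genes. The other 7 (Atf4, Asns, Psat1, Shmt2, Mthfd2, Mars and Yars) were lower in 4 of 4 lines, or 17.1% of members against 7.73% of all genes. No member was higher in 4 of 4 lines, against 9.02% of all genes. Members are co-regulated and are not replicates of each other.

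In edgeR's quasi-likelihood test within lines, with Benjamini-Hochberg adjustment over all genes, 0 of 41 members had an adjusted p under 0.05 (called) in either direction. Among all genes 0.0247% were called higher and 0% lower with WT-USP21. At an unadjusted p under 0.05 there were 2 members, Atf4 and Psat1, both lower (2.88% of all genes were lower by this measure). Limma-trend called 0 members and DESeq2 called 1, Psat1. Without the cell line in the model, edgeR called 0 members and 0% of all genes. Psat1 alone, lower with WT-USP21, then had an unadjusted p under the threshold, as did 0.821% of all genes in that direction. A p that misses the threshold does not show that a member was unchanged.

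**Figure D1:**
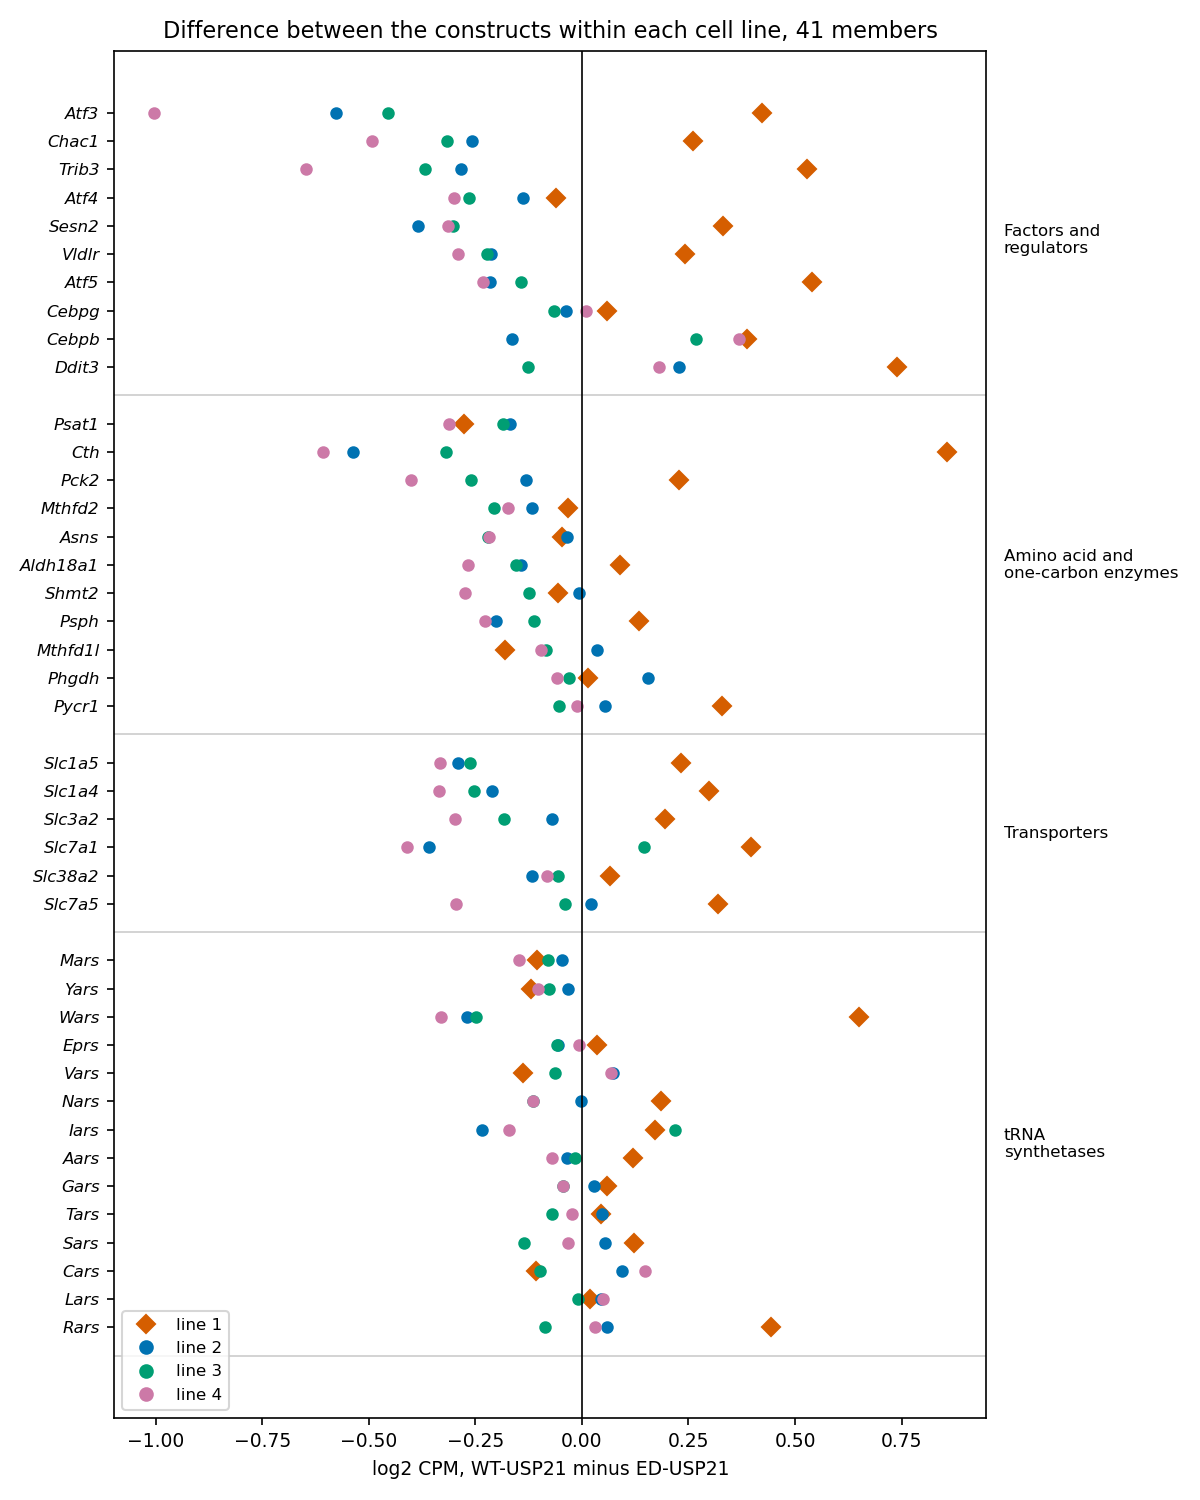
Difference in log2 CPM, WT-USP21 minus ED-USP21, within each cell line (x axis) for the 41 members (y axis, by class and by the blocked difference). Each point is 1 line. Line 1 (diamonds) lies to the right of 0 for 31 of 41 members, while line 3 lies to the left for 38 of 41.

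Among the transcription factors and regulators, 8 of 10 had a negative log2 difference within lines, with a class median of -0.14. This median was -0.05 without line 4 and 0.0046 without the cell line in the model. Atf4 (ENSMUSG00000042406) encodes the central factor of the response. It stood at 804, 393, 418 and 373 CPM in the WT-USP21 libraries of lines 1 to 4, against 838, 432, 502 and 459.6 CPM in the ED-USP21 libraries. All 4 lines had less Atf4 RNA with WT-USP21, but line 1 lay so far above the other lines that the groups overlapped (log2 -0.19, SE 0.07, edgeR adjusted p = 0.497). Atf3 (ENSMUSG00000026628), a stress-induced bZIP factor downstream of ATF4, had 64.5, 4.46, 6.69 and 4.03 CPM with WT-USP21, against 48.2, 6.66, 9.19 and 8.11 CPM with ED-USP21. It was lower with WT-USP21 in lines 2, 3 and 4 and higher in line 1, where both libraries were far above the rest (log2 -0.39, SE 0.23, edgeR adjusted p = 0.734). Chac1, an enzyme that degrades glutathione, had 86.8, 23.7, 25.6 and 21.3 CPM with WT-USP21, against 72.5, 28.3, 31.8 and 30.0 CPM with ED-USP21. It was lower in lines 2, 3 and 4 and higher in line 1 (log2 -0.20, SE 0.13, edgeR adjusted p = 0.760).

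The pro-apoptotic factor gene Ddit3 (CHOP) did not go with its neighbours in this class. It had 68.8, 18.6, 13.6 and 17.1 CPM with WT-USP21, against 41.2, 15.9, 14.9 and 15.1 CPM with ED-USP21, so it was higher in lines 1, 2 and 4 (log2 0.26, SE 0.14, edgeR adjusted p = 0.714). Cebpb, a C/EBP factor that partners ATF4, had 13.0, 8.71, 10.1 and 11.5 CPM with WT-USP21, against 9.91, 9.75, 8.34 and 8.90 CPM with ED-USP21. It was higher in lines 1, 3 and 4 (log2 0.22, SE 0.12, edgeR adjusted p = 0.733). The other partner, Cebpg, differed by at most 0.07 in either direction in any line. The remaining genes (the ATF4-related factor Atf5, the ATF4 inhibitor Trib3, the leucine sensor Sesn2 and the lipoprotein receptor Vldlr) shared the pattern of Chac1, with a positive difference in line 1 of 0.24 to 0.54 and negative differences of -0.65 to -0.14 in the other lines.

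**Figure D2:**
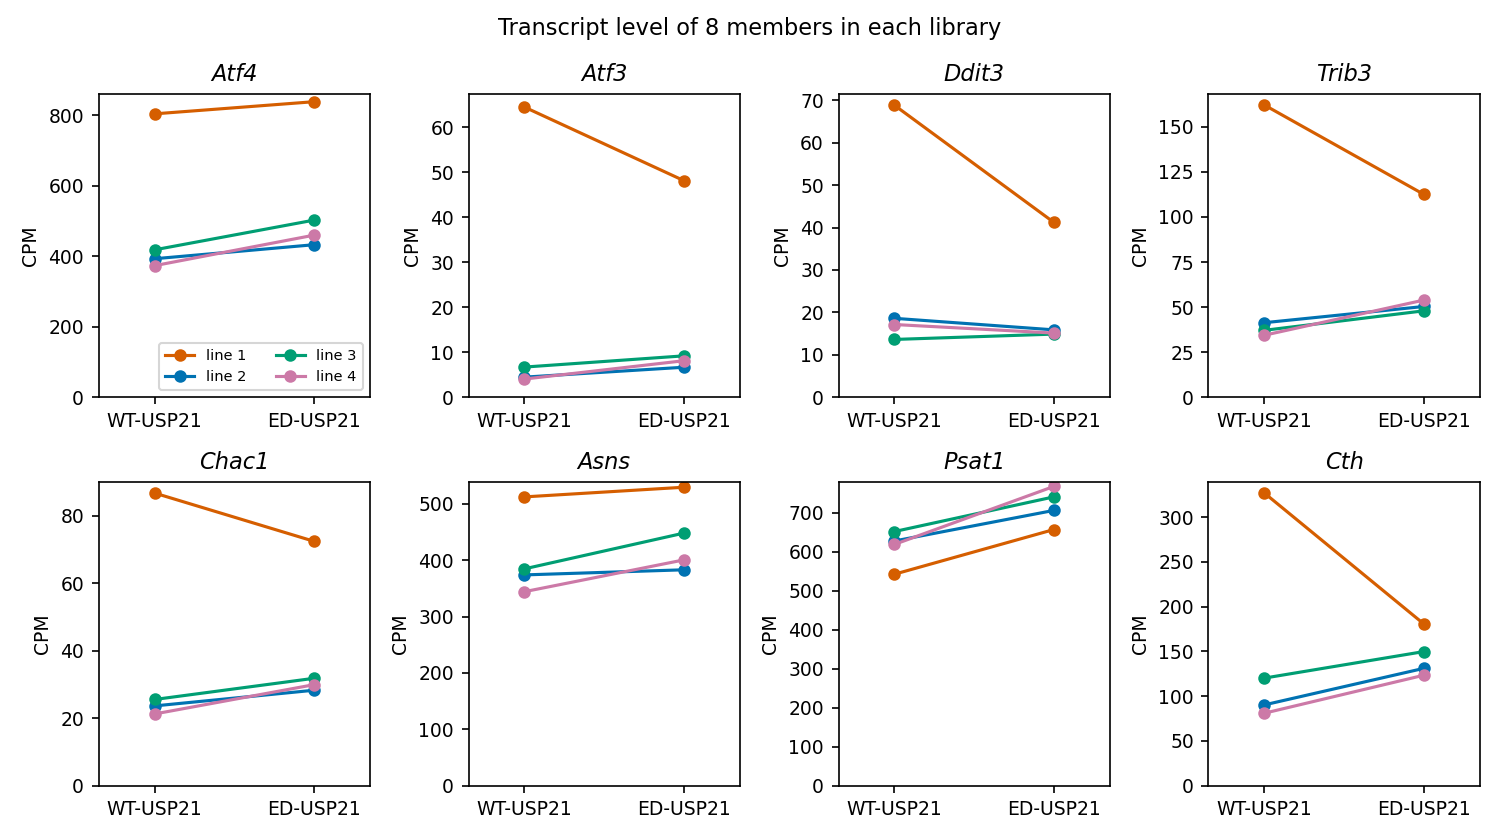
Level of 8 members in CPM (y axis, linear from 0) in the WT-USP21 and ED-USP21 libraries (x axis), with lines joining the 2 libraries of a cell line. Line 1 stands above the other lines for each gene shown except Psat1, and slopes the other way from them for Atf3, Trib3, Chac1 and Cth.

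Among the enzymes of amino acid synthesis and one-carbon metabolism, 9 of 11 had a negative log2 difference, with a class median of -0.12 and line medians of 0.01, -0.12, -0.16 and -0.23. The class median was -0.06 without line 4. In lines 3 and 4 all 11 were lower with WT-USP21. Psat1 (ENSMUSG00000024640) encodes the aminotransferase of serine synthesis. It had 542, 628, 652 and 619 CPM with WT-USP21, against 657, 706, 741 and 768 CPM with ED-USP21, so every WT-USP21 value lay below every ED-USP21 value. The margin was small, from 652 to 657 CPM, and the share of all genes that separate in this way was not counted. Within lines edgeR gave -0.24 on the log2 scale (SE 0.06, adjusted p = 0.329), and DESeq2 called Psat1 lower (adjusted p = 0.0107), as it did 0.55% of all genes. The other enzymes of serine synthesis did not share its sign in each line. Psph, the phosphatase of the last step, was higher in line 1 (0.13), and Phgdh, the dehydrogenase of the first step, was higher in lines 1 and 2 (0.01 and 0.15).

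The mitochondrial one-carbon enzymes that take serine onward differed by less. Mthfd2, a folate dehydrogenase of mitochondria, had 239.9, 143, 137 and 145 CPM with WT-USP21, against 246, 155, 158 and 164 CPM with ED-USP21. It was lower in 4 of 4 lines, though the groups overlapped through line 1 (log2 -0.13, SE 0.06, edgeR adjusted p = 0.620). Shmt2, the mitochondrial serine hydroxymethyltransferase, had 324, 243, 236 and 224 CPM with WT-USP21, against 337, 244, 257 and 271 CPM with ED-USP21. It too was lower in 4 of 4 lines, by 0.01 in line 2 and 0.28 in line 4 (log2 -0.12, SE 0.07, edgeR adjusted p = 0.725). Mthfd1l, which releases formate, was lower in lines 1, 3 and 4 and higher by 0.04 in line 2.

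Asns (ENSMUSG00000029752), the asparagine synthetase gene whose promoter element is shown above, had 512, 374, 385 and 344 CPM with WT-USP21, against 529, 383, 448 and 400.4 CPM with ED-USP21. It was lower in 4 of 4 lines and overlapped between groups (log2 -0.13, SE 0.06, edgeR adjusted p = 0.669). Aldh18a1, the first enzyme of proline synthesis from glutamate, had 472, 295, 309 and 281 CPM with WT-USP21, against 444, 326, 344 and 338 CPM with ED-USP21. It was lower in lines 2, 3 and 4 and higher in line 1 (log2 -0.12, SE 0.07, edgeR adjusted p = 0.756). Pycr1, which completes proline synthesis, was higher by 0.33 in line 1 and differed by 0.05, -0.05 and -0.01 in lines 2, 3 and 4. The largest line differences of the class belonged to Cth, the cystathionine lyase that makes cysteine. Cth had 327, 90.3, 120.2 and 81.0 CPM with WT-USP21, against 181, 131, 149.9 and 123 CPM with ED-USP21, a difference of 0.86 in line 1 and of -0.54, -0.32 and -0.61 in lines 2, 3 and 4. Pck2, the mitochondrial PEP carboxykinase, had the same signs at 0.23, -0.13, -0.26 and -0.40.

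Among the 6 transporters, 5 had a negative log2 difference, with a class median of -0.07 and line medians of 0.26, -0.16, -0.12 and -0.32. The class median was -0.19 without line 1 and -0.03 without line 4. In line 1 all 6 were higher with WT-USP21, and in line 4 all 6 were lower. Slc1a5 (ASCT2), a glutamine and neutral amino acid exchanger, had 178, 171, 170.3 and 162 CPM with WT-USP21, against 152, 209.7, 205 and 205 CPM with ED-USP21. Within the WT-USP21 group it varied little, and the ED-USP21 library of line 1 was the low one of its group (log2 -0.16, SE 0.11, edgeR adjusted p = 0.767). Slc1a4 (ASCT1), a serine and alanine transporter, had 164, 108, 109 and 99.2 CPM with WT-USP21, against 133, 125, 130.1 and 125 CPM with ED-USP21 (log2 -0.13, SE 0.11, edgeR adjusted p = 0.848). It shared the signs of Slc1a5, but here the WT-USP21 library of line 1 was the high one.

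Slc3a2, the heavy chain that carries light-chain exchangers to the surface, had 374, 220.4, 203 and 206 CPM with WT-USP21, against 327, 231, 230.3 and 254 CPM with ED-USP21 (log2 -0.09, SE 0.09, edgeR adjusted p = 0.871). Its light chain Slc7a5 (LAT1), a leucine importer, was higher in lines 1 and 2 (0.32 and 0.02) and lower in lines 3 and 4 (-0.04 and -0.30). Slc38a2 (SNAT2), a sodium-coupled importer of small neutral amino acids, had 470.5, 308, 364 and 324 CPM with WT-USP21, against 449, 334, 379 and 343 CPM with ED-USP21. Its line differences were at most 0.12 in size (log2 -0.05, SE 0.06, edgeR adjusted p = 0.895). The cationic amino acid importer Slc7a1 (CAT1) went different ways in lines 3 and 4, with 420.4, 238, 336 and 226 CPM with WT-USP21, against 319, 306, 303 and 301 CPM with ED-USP21 (log2 -0.06, SE 0.15, edgeR adjusted p = 0.957).

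The cytosolic synthetases, which charge tRNA with amino acids, had a class median of 0.00, and line medians of 0.05, 0.01, -0.07 and -0.04. Of the 14, 9 had a negative log2 difference, and the class ran from -0.09 to 0.11 within lines. Mars (ENSMUSG00000040354), for methionine, had 221, 204, 181 and 196 CPM with WT-USP21, against 238, 211, 192 and 217 CPM with ED-USP21. Yars, for tyrosine, had 153, 112, 105 and 105 CPM with WT-USP21, against 167, 114, 111 and 113 CPM with ED-USP21. Both were lower in 4 of 4 lines by 0.15 or less and overlapped between groups (log2 -0.09, SE 0.05, edgeR adjusted p = 0.721 for Mars). The difference for Yars was -0.08 (SE 0.05, edgeR adjusted p = 0.757).

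Rars, for arginine, had 326, 189.6, 184 and 193 CPM with WT-USP21, against 239.6, 182, 196 and 188 CPM with ED-USP21. Only its line 1 difference, 0.44, exceeded 0.10 in size (log2 0.11, SE 0.10, edgeR adjusted p = 0.838). Lars, for leucine, had 666, 441, 448 and 440.5 CPM with WT-USP21, against 658, 428, 450.3 and 426 CPM with ED-USP21 (log2 0.03, SE 0.05, edgeR adjusted p = 0.945). Eprs, the fused enzyme for glutamate and proline, had 719, 534, 533 and 533 CPM with WT-USP21, against 702, 556, 555 and 535 CPM with ED-USP21 (log2 -0.02, SE 0.05, edgeR adjusted p = 0.957). The constructs thus differed by at most 0.06 in each line for both Lars and Eprs. Wars, for tryptophan, had the widest line differences of the class, with 204, 134, 139.7 and 139 CPM with WT-USP21, against 130.0, 161, 166 and 175 CPM with ED-USP21, a difference of 0.65 in line 1 and of -0.27, -0.25 and -0.33 in lines 2, 3 and 4. Aars, Cars, Gars, Iars, Nars, Sars, Tars and Vars had log2 differences between -0.01 and 0.01 within lines and up to 0.23 in size in a single line (Iars).

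With line 1 left out, as 1 of the 4 ways to leave out a line, 6 members fell with WT-USP21 and 0 rose in edgeR's test within lines. That is 14.6% of the members called lower, against 2.06% of all 16326 genes then tested, and 0 called higher, against 2.51% of all genes. Line 1 was left out with earlier results known, and it is the line in which most members lay higher. This choice favours lower members in every fit without line 1. Called from the class of factors and regulators were Trib3 (log2 -0.43, SE 0.08, edgeR adjusted p = 0.0457), Chac1 (-0.35, SE 0.07, 0.0488) and Sesn2 (-0.33, SE 0.06, 0.0393). Called from the other classes were Cth (-0.48, SE 0.07, 0.0233), the transporter Slc1a5 (-0.29, SE 0.05, 0.0395) and the synthetase Wars (-0.28, SE 0.05, 0.0457). Trib3, a pseudokinase that feeds back on ATF4, had 41.3, 37.1 and 34.4 CPM in the WT-USP21 libraries of lines 2, 3 and 4, against 50.3, 47.9 and 53.9 CPM in the ED-USP21 libraries. Sesn2, an inhibitor of mTORC1 when leucine is short, had 19.9, 21.5 and 19.1 CPM, against 26.0, 26.5 and 23.8 CPM. In these 3 lines the groups did not overlap for Trib3 or Sesn2, nor for Chac1, Cth, Slc1a5 and Wars with the values given above. These 6 were picked by the test on the same libraries, so this adds no support to the calls. The share of all genes without overlap was not counted. In line 1 each of the 6 was higher with WT-USP21. The adjusted p of the members other than Cth lay close to the threshold. Without the cell line in the model as well as without line 1, 0 members were called (0.851% of all genes were called lower). By that fit 16 members had an unadjusted p under 0.05, all lower, or 39%, against 6.47% of all genes.

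Without line 1, Atf4 itself differed by -0.23 on the log2 scale (SE 0.06, edgeR adjusted p = 0.0913), and Atf3 the largest of all members at -0.67 (SE 0.14, edgeR adjusted p = 0.0547). At an unadjusted p under 0.05, 18 of 41 members were lower and 0 higher, or 43.9%, against 8.94% of all genes lower and 9.21% higher. These 18 were 7 of 10 factors and regulators, 7 of 11 enzymes, 3 of 6 transporters and 1 of 14 synthetases. Class medians were then -0.23, -0.16, -0.19 and -0.03 in that order, against 0.00 over all genes. The call rests on 3 lines, and how far these are independent was not tested. Deviations from the group means, line 1 included, were correlated across genes. The correlation reached 0.430 between a library of line 2 and one of line 4 with the other construct. Between both libraries of line 4 it was 0.347. Because line 1 enters these means, the values do not show whether lines 2 and 4 are alike among the 3 lines. Leaving out line 2, 3 or 4 in place of line 1 gave 0 called members each time, but also 0 called genes among all those tested, so nothing can be read from it about the members.

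**Figure D3:**
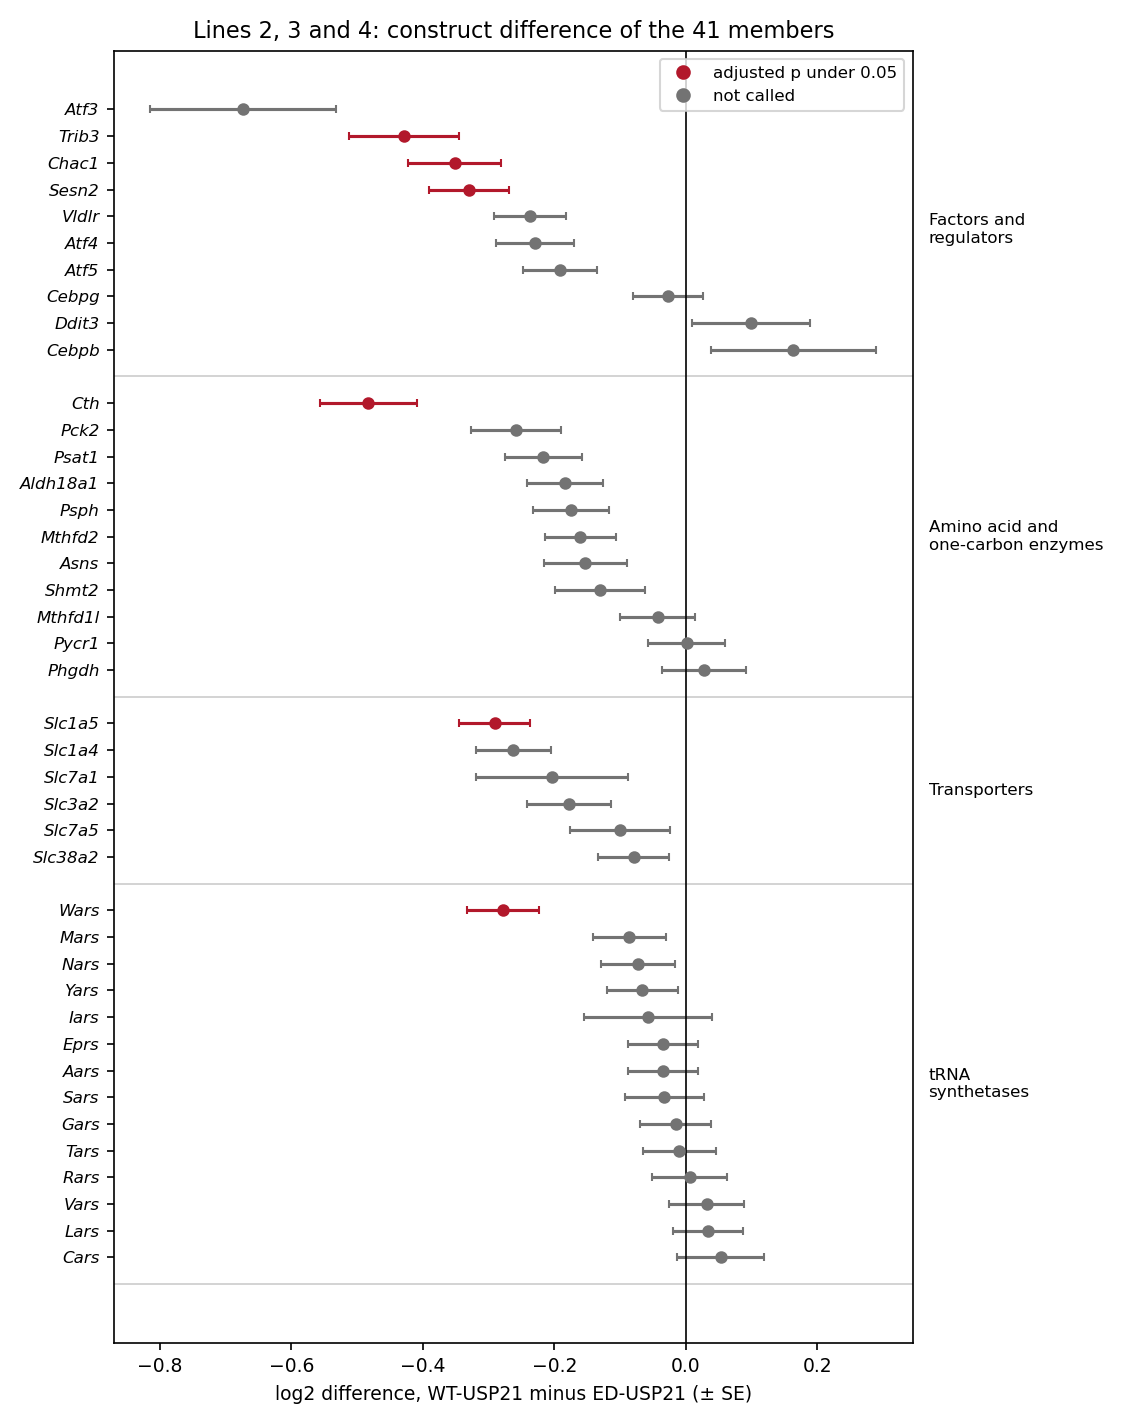
Log2 difference, WT-USP21 minus ED-USP21, with its standard error (x axis) in lines 2, 3 and 4 for the 41 members (y axis, by class), from edgeR's test within lines without line 1. The 6 members in red passed an adjusted p of 0.05, and 13 of the 14 synthetases, all but Wars, lie within 0.09 of 0.

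Line 1 also differed from lines 2 to 4 in the level of these genes under both constructs. Both libraries of line 1 lay above all 6 other libraries for 29 of 41 members, or 70.7%, against 26% of all genes, and below them for 2 (Cars and Vars), or 4.88%, against 24.3%. The share above was also 66.7% for other cytosolic synthetases and for complex scaffold genes, and 55.6% for other amino acid transporters. Further ATF4 target genes had 61.1% above and 11.1% below. The share above was 37.5% for eIF2 kinase, phosphatase and eIF2B genes, 30.8% for other one-carbon genes and 6.25% for mitochondrial synthetases. The median of log2 CPM in line 1 minus the mean of lines 2 to 4 was 0.61 with WT-USP21 and 0.37 with ED-USP21 over the members, against -0.02 and -0.02 over all genes. It was largest in the factors and regulators, at 1.54 with WT-USP21 and 1.002 with ED-USP21. Atf3 in line 1 was 13.0-fold the level of the other lines with WT-USP21 and 6.07-fold with ED-USP21, Trib3 4.32-fold and 2.22-fold, Ddit3 4.22-fold and 2.69-fold, and Sesn2 4.20-fold and 2.65-fold. Atf4 RNA was 2.04-fold and 1.81-fold. Line 1 is a single line, so these values have no replicate, and no test of them was made.

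Within the enzymes, Psph in line 1 was 2.13-fold and 1.71-fold the level of lines 2 to 4, whereas Psat1 was lower, at 0.857-fold and 0.891-fold. Of the transporters, Slc7a5 was highest in this respect, at 2.49-fold with WT-USP21 and 1.85-fold with ED-USP21. Of the synthetases, Sars was at 1.95-fold and 1.75-fold and Aars at 1.91-fold and 1.71-fold, while Vars was at 0.700-fold and 0.785-fold. The 6 libraries of lines 2, 3 and 4 lay close together for the synthetases, with a median range of 0.13 on the log2 scale. The range was 0.29 for the enzymes, 0.35 for the transporters and 0.47 for the factors and regulators, against 0.49 over all genes. Cytosolic synthetases outside the members had 0.19. Expression levels differ between these sets, and their part was not tested.

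**Figure D4:**
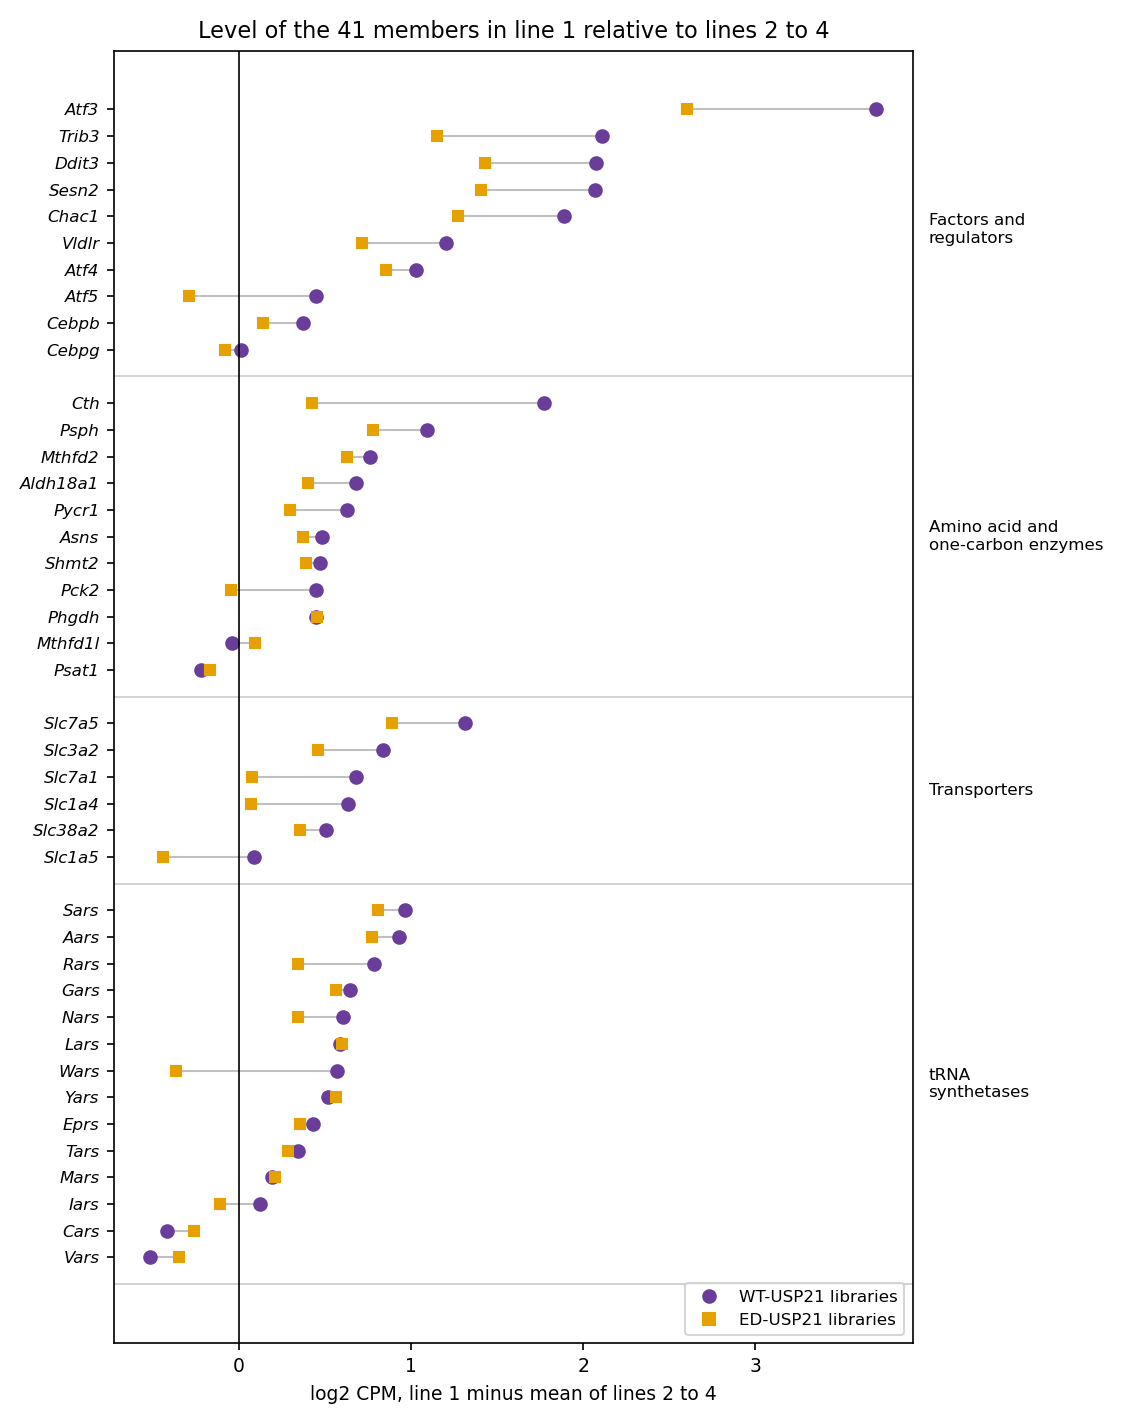
Log2 CPM in line 1 minus the mean of lines 2 to 4 (x axis) for the 41 members (y axis, by class), in WT-USP21 libraries (circles) and ED-USP21 libraries (squares). Most members lie right of 0 under both constructs, up to 3.70 with WT-USP21 and 2.60 with ED-USP21 for Atf3.

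The construct difference was not shown to depend on the background label. In edgeR's interaction test, FVB/C57Bl6 lines against C57BL/6 lines, 0 of 41 members were called (0% of all genes), and 0 had an unadjusted p under 0.05, against 2.32% of all genes. The smallest adjusted p of a member was 0.990. DESeq2 and limma-trend called 0 members too. Lines 1 and 2 share a label and went in different directions for most members. Without line 2, which leaves line 1 alone under its label and assumed to vary like lines 3 and 4, 17 of 41 members had an unadjusted p under 0.05, or 41.5%, against 17.6% of all genes, and 0 were called.

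Other genes of the pathway, not among the 41, were read in the same way. Further ATF4 target genes, 18 of 20 of them tested, had medians of 0.29, -0.17, -0.16 and -0.18 in lines 1 to 4, the signs of the members. Over all lines 0 of the 18 were called by edgeR within lines. Without line 1 only Cebpa, a C/EBP factor, was called (log2 -0.37, SE 0.07, edgeR adjusted p = 0.0489). That is 5.56% of the list called lower and 0 higher, against 2.06% and 2.51% of all genes. At an unadjusted p under 0.05 without line 1, 7 of the 18 were lower, or 38.9%, against 8.94% of all genes. Higher by this measure was 1, or 5.56%, against 9.21% of all genes. Gdf15, a secreted stress signal, had 2.84, 4.88, 5.51 and 5.51 CPM with WT-USP21, against 3.12, 9.70, 6.49 and 8.97 CPM with ED-USP21. It was lower in 4 of 4 lines (log2 -0.52, SE 0.18, edgeR adjusted p = 0.493). The autophagy receptor gene Sqstm1 went the other way, with 574, 317, 307 and 322 CPM with WT-USP21, against 403, 282, 302 and 268 CPM with ED-USP21 (log2 0.24, SE 0.09, edgeR adjusted p = 0.549).

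Of 17 genes for eIF2 kinases, phosphatase subunits, eIF2B and their regulators, 16 were tested and 0 were called over all lines, with medians between -0.05 and -0.04 in each line. Lower with WT-USP21 in 4 of 4 lines were 5 of the 16 (Eif2ak2, Eif2ak3, Eif2ak4, Ppp1r15b and Ppp1cc), or 31.2%, against 7.73% of all genes. Eif2ak2 (PKR) and the phosphatase catalytic subunit gene Ppp1cc, which had the smallest p here, differed by -0.11 (SE 0.06, edgeR adjusted p = 0.707) and -0.12 (SE 0.05, edgeR adjusted p = 0.638). Ppp1r15a (GADD34), the inducible subunit that reverses eIF2 phosphorylation and is itself a target of the response, had the widest line differences of this list. It had 129, 21.9, 33.6 and 24.9 CPM with WT-USP21, against 58.4, 35.1, 44.7 and 34.2 CPM with ED-USP21. It fell with WT-USP21 without line 1 (log2 -0.51, SE 0.07, edgeR adjusted p = 0.0201) and differed by 1.14 in the other direction in line 1. Ppp1r15a was the 1 gene of this list called without line 1. That is 6.25% lower and 0 higher, against 2.06% and 2.51% of all genes.

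Synthetases outside the 41 gave 0 calls over all lines and 0 without line 1, where 2.06% of all genes were called lower and 2.51% higher. The other 6 cytosolic ones had medians between -0.10 and 0.07 in single lines, and their smallest p belonged to Qars, for glutamine (log2 -0.07, SE 0.07, edgeR adjusted p = 0.866), and Hars, for histidine (-0.03, SE 0.05, 0.930). The 16 mitochondrial ones had a negative median in each line, from -0.10 to -0.01, with Ears2 at 17.2, 22.2, 19.96 and 20.5 CPM with WT-USP21, against 18.8, 23.6, 24.0 and 24.5 CPM with ED-USP21 (log2 -0.19, SE 0.07, edgeR adjusted p = 0.556). Pars2, for proline, had -0.16 (SE 0.08, edgeR adjusted p = 0.689). The scaffold genes Aimp1 and Aimp2 of the multi-synthetase complex had 0.07 (SE 0.07, edgeR adjusted p = 0.861) and 0.05 (SE 0.07, edgeR adjusted p = 0.910).

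Of the other one-carbon and serine genes, 13 of 14 were tested and 0 called over all lines. Gldc, the glycine decarboxylase that feeds the folate pool in mitochondria, had 94.2, 67.7, 60.2 and 57.1 CPM with WT-USP21, against 93.0, 92.8, 89.7 and 111 CPM with ED-USP21 (log2 -0.49, SE 0.15, edgeR adjusted p = 0.447). It fell with WT-USP21 without line 1, by 0.66 (SE 0.10, edgeR adjusted p = 0.0239), and in line 1 the constructs differed by 0.02. Gldc was the 1 gene of this list called without line 1. That is 7.69% lower and 0 higher, against 2.06% and 2.51% of all genes. Mthfd2l, a relative of Mthfd2, had -0.13 (SE 0.08, edgeR adjusted p = 0.762).

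The other amino acid transporters, 9 of 11 tested, had medians of 0.05, 0.11, 0.23 and 0.26 in lines 1 to 4, against 0.26, -0.16, -0.12 and -0.32 for the 6 members, so the signs differed in lines 2, 3 and 4. Of the 9, those higher with WT-USP21 numbered 5, 5, 7 and 8 in the same order of lines. Slc43a2 (LAT4), which carries branched-chain amino acids by facilitated diffusion, had 22.6, 28.7, 36.2 and 25.8 CPM with WT-USP21, against 15.4, 15.1, 23.8 and 14.5 CPM with ED-USP21. It was higher in 4 of 4 lines but missed the threshold over all lines (log2 0.73, SE 0.09, edgeR adjusted p = 0.0987), and it rose with WT-USP21 without line 1 (log2 0.79, SE 0.08, edgeR adjusted p = 0.00892) and in DESeq2 (adjusted p = 5.45e-09). Slc7a2 (CAT2), a cationic amino acid transporter, was low throughout, with 0, 1.83, 1.53 and 1.97 CPM with WT-USP21, against 0.00963, 0.311, 0.290 and 0.142 CPM with ED-USP21. Over all lines the difference was 2.72 on the log2 scale (SE 0.53, edgeR adjusted p = 0.273), and Slc7a2 rose without line 1 (log2 2.87, SE 0.36, edgeR adjusted p = 0.0145) and in DESeq2 (adjusted p = 1.35e-05). Without line 1, Slc43a2 and Slc7a2 were the called genes among the 8 of this list then tested. That is 25% called higher and 0 lower, against 2.51% and 2.06% of all genes.

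**Figure D5:**
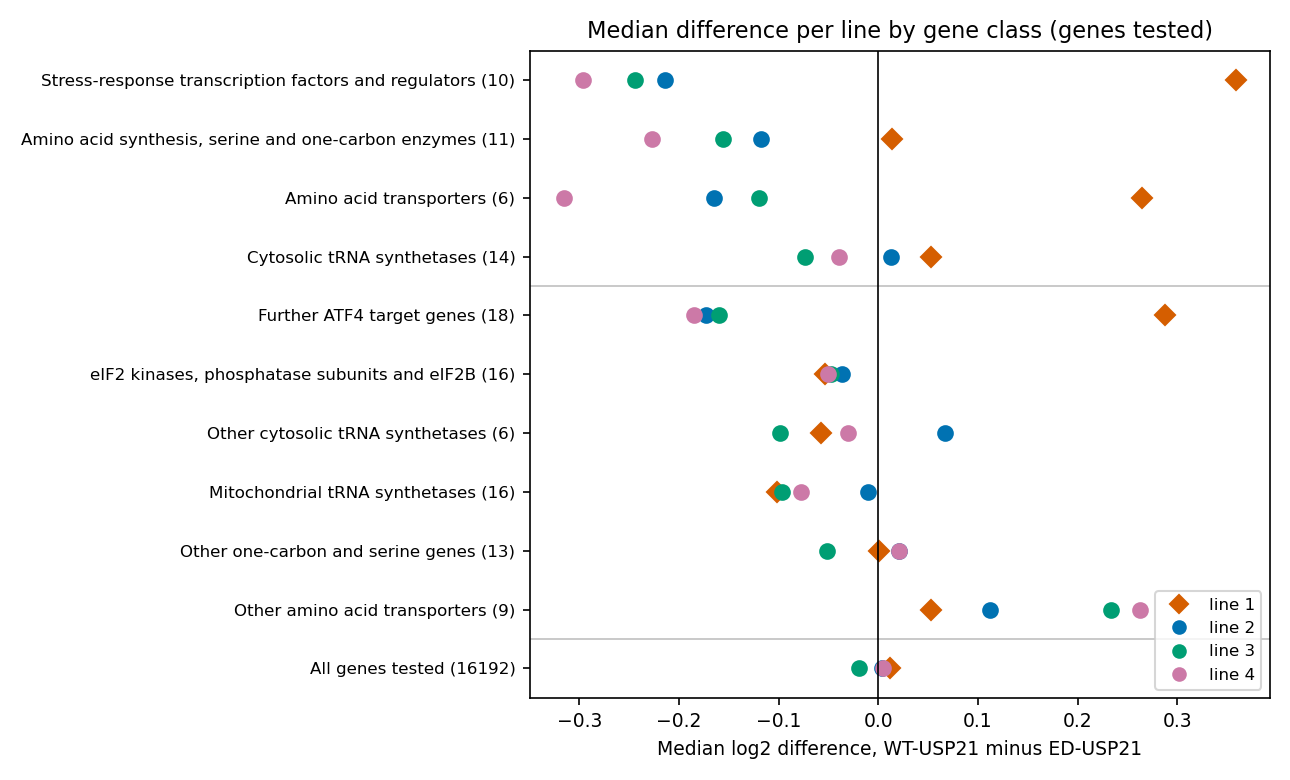
Median of the difference in log2 CPM, WT-USP21 minus ED-USP21 (x axis), in each cell line for the 4 classes of members (top), 6 further lists of the pathway (middle) and all genes tested (bottom), with the number of genes tested in parentheses. In line 1 (diamonds) the factors and regulators lie at 0.36 and in the other lines between -0.30 and -0.21, while the synthetases lie between -0.07 and 0.05 in all 4.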

How the data were processed

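RNA of 8 libraries was sequenced, and the deposited values are whole-number read counts per gene for 39179 genes, not normalised. The submitters' processing notes list HTSeq, STAR, CASAVA, Cufflinks and TopHat and the build mm9, with no roles or versions given. Strand was not stated, so overlapping and antisense genes cannot be separated, and reads of pseudogene copies are uncertain. The 3 rows that name no gene (11.4% to 20.6% of counts, all in 1 row) were left out. Genes passing edgeR's default filter (16192) were tested with edgeR 4.0.16 in R 4.3.3 (TMM scaling, quasi-likelihood, adjusted p under 0.05), without and with cell line as a block. DESeq2 1.42.0 and limma 3.58.1 were alternatives, with other scaling, other filters and each line left out. The SE is the log2 difference over the root of the F statistic. Log2 CPM used a prior count of 2. The construct tests over all lines, without and with the block, were tried on simulated counts. The simulation without the block gave each gene the same mean level in all lines. No line going the other way, no interaction and no fit with a line left out was simulated. With the block, the p-values rest on how the construct difference varied between these lines. Without it, they rest on the spread between lines within a group.

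Line numbers pair the libraries, since both come from 1 cell line. Deviations from group means correlated within lines 1 to 4 at 0.770, 0.503, 0.468 and 0.347.

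The members, the gene lists and the leaving out of line 1 were chosen with earlier results of these data known. Full values are given for the 5 members per class and 2 genes per other list with the smallest p within lines, and for any called gene. Promoters are RefSeq sequences of GRCm38.p6, not of mm9, and counts were not placed on them. Some items, including an allele that all libraries share, are not reported here.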

Additional observations from a re-analysis of the deposited data

Results flagged for a closer look

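Among 67 groups of 4 values examined (the 2 groups of libraries and the line differences of each of 20 members and Usp21, and 4 library measures), 23 had 1 value far from the other 3, where chance gives about 1 in 20, or 3.35. In each of the 23 the value apart was that of line 1, so these are repeats of 1 pattern and not separate findings. Usp21 differed between the constructs by -3.50 on the log2 scale in line 1. In WT-USP21 libraries the level of line 1 stood apart at 804 CPM for Atf4, 374 CPM for Slc3a2, 164 CPM for Slc1a4 and 326 CPM for Rars. In libraries of both constructs it stood apart for Ddit3 (68.8 CPM with WT-USP21 and 41.2 CPM with ED-USP21), Atf3 (64.5 and 48.2 CPM), Chac1 (86.8 and 72.5 CPM), Mthfd2 (239.9 and 246 CPM), Aldh18a1 (472 and 444 CPM), Yars (153 and 167 CPM), Lars (666 and 658 CPM) and Eprs (719 and 702 CPM). Slc1a5 stood apart at 152 CPM in the ED-USP21 library of line 1, below the 205 to 209.7 CPM of the others, and in its line difference of 0.23, against -0.33 to -0.26 in the others.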

How the results depend on the processing

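In the 3 edgeR comparisons, members were called in no setting except the within-line test without line 1 (6, all lower) and DESeq2 within lines (1, Psat1). With lines left out, members called within lines ranged from 0 to 6. Genes called within lines were 4 at first, 58 with no filter on low counts, 0 with a minimum mean of 5 CPM, 402 with DESeq2, 0 with no replicate block, and 0 to 746 with a line left out. Without the cell line they were 0 at first, 60 with DESeq2, 3 with limma-trend, 4 with the replicate block and 0 to 383 with a line left out. By background label DESeq2 called 7 genes and edgeR 0. Of the 20 members with full values, Atf3 changed sign with no replicate block (0.14), and Slc7a1 ranged from -0.20 to 0.063 with a line left out (0.04 without line 2). With a line left out, class medians ranged from -0.23 to -0.05 (factors and regulators), -0.16 to -0.06 (enzymes), -0.19 to -0.03 (transporters) and -0.03 to 0.02 (synthetases). These shifts were smaller than the SD over the 4 line medians. Line 1 widens that SD, so this does not show that the medians are stable. With no replicate block the factors and regulators median turned to 0.0046 and that of the synthetases to 0.0047. The cause of these differences was not tested. Depth was not limiting for the members, at 4.03 CPM or more in each library.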

Other observations

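Some values outside the rule for named genes were picked out after they had been seen. Lars2, the mitochondrial leucyl-tRNA synthetase gene, was listed at 629 CPM in the WT-USP21 library of line 4 and at 19.4 to 31.6 CPM in the other WT-USP21 libraries, against 20.4 to 34.2 CPM in the ED-USP21 libraries. No other mitochondrial synthetase differed by more than 0.46 on the log2 scale in any line, and Lars2 in line 4 differed by 4.53. Ppp1ca, a phosphatase subunit gene that most cells use, was listed at no more than 0.116 CPM in any library, and so was not tested.

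Tyms, which makes thymidylate for DNA synthesis, had 36.0 CPM with WT-USP21 against 54.8 CPM with ED-USP21 in line 1. In the other lines the constructs differed by at most 0.09 on the log2 scale. Stc2, a secreted glycoprotein gene of the stress response, had 26.2 CPM with WT-USP21 against 3.93 CPM with ED-USP21 in line 1, and between 8.47 and 11.2 CPM with WT-USP21 against 10.5 to 13.2 CPM with ED-USP21 in the other lines. Aldh1l1, a folate dehydrogenase gene, had 23.0 CPM with WT-USP21 against 4.54 CPM with ED-USP21 in line 1, with differences of 0.22, 0.12 and -0.18 in lines 2, 3 and 4.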
